A study of Mus musculus with 2 samples.

Results

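The regulators of G protein signalling (RGS) described here are the 7 genes Rgs1, Rgs2, Rgs3, Rgs10, Rgs14, Rgs16 and Rgs19. They were taken by their GENCODE M21 gene symbol from gene and transcript quantification tables that hold 55536 annotated genes, and each symbol matched exactly 1 gene. The RNA was polyA-selected RNA of primary regulatory T cells, or Treg cells, a CD4 lineage that holds immune responses in check, from a male mouse aged 9 weeks. The series holds 2 sequencing libraries, named technical replicates 1 and 2 of the same biological replicate, and called library 1 and library 2 here. No treatment or second cell type was sampled, so the data describe levels and transcripts in this single biosample. The sources used here do not state strain, sorting markers or strandedness. Every ± below is the SD of the technical libraries (n = 2) and says nothing of other mice.

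RGS proteins act on heterotrimeric G proteins, the switches through which chemokine, sphingosine and prostaglandin receptors signal. An active receptor loads the G alpha subunit with GTP, and the RGS domain speeds the hydrolysis of that GTP, which ends the signal sooner. In lymphocytes they are known for shortening chemokine receptor signals and thereby tuning migration and retention in lymphoid organs. The family is divided by sequence into subfamilies, among them R4 (small proteins made of little more than the RGS domain), R12, RZ and R7.

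The libraries held 34697128 and 32049199 estimated counts on annotated genes. All 5 Treg markers and all 5 pan-T markers were detected, where detected means 1 TPM (length-corrected transcript abundance scaled to a fixed total) or more in both libraries. Foxp3, the lineage-defining factor, stood at 108 and 111 TPM. Marker lists of other cells were low in sum, apart from the red cell and plasma cell lists. The B cell list had 5 of 6 genes detected at 49.4 and 44.8 TPM in sum, and the macrophage list 3 of 6 at 24.2 and 17.9 TPM. Of the germinal centre B cell list 1 of 4 genes was detected, of the dendritic cell list 1 of 5, of the natural killer cell list 2 of 4 and of the plasma cell list 1 of 4, Xbp1 at 129 and 109 TPM. The neutrophil, platelet, mast cell and stroma lists had 0 genes detected, although the neutrophil sum was 0.29 and 6.21 TPM. The red cell list had 3 of 4 genes detected at 216 and 204 TPM in sum. Elane, Gp1bb, Ncr1 and Mcpt8 had 0 counts in both libraries, and the part of other cells in the RGS levels was not tested. In bulk RNA, fewer cells expressing a gene and less of its RNA per cell cannot be told apart.

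All 7 RGS genes were detected, against 48% of 22028 annotated protein-coding genes at the same minimum. Their levels spanned from 21.9 TPM for Rgs16 to 377 TPM for Rgs1. The median of the set was 118 TPM, beside 31.1 TPM for the 10583 detected protein-coding genes. Because the set was named with these levels known, the count and the median are descriptions. Together the genes summed to 1226 and 1168 TPM.

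Rgs1, an R4 protein that damps chemokine receptor signalling in lymphocytes, lies on chromosome 1 from 144242296 to 144249242 on the minus strand (GRCm38). Library 1 gave 397 TPM and library 2 gave 357 TPM, a mean of 377 ± 27.8 TPM and percentile 97.0 of the detected protein-coding genes. These levels rest on 12300 and 10436 estimated counts. The interval deposited with the library 1 value ran from 361 to 378 TPM. It surrounds the posterior mean of 369 TPM from the same estimation and not the TPM itself.

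Rgs10, a small R12 protein that acts on G alpha i, stood at 361 and 372 TPM, a mean of 367 ± 8.19 TPM. Its locus is on chromosome 7 from 128373621 to 128418758, minus strand, and it took 6271 and 6280 estimated counts. Rgs1 was the higher of the pair in library 1 and Rgs10 in library 2. Their ranges overlap, so the order of these genes was not resolved.

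The next in order was Rgs19, an RZ protein with a cysteine-rich start that acts on G alpha i (chromosome 2, 181688419 to 181693977, minus strand). It stood at 185 and 188 TPM, a mean of 186 ± 1.92 TPM from 4920 and 4708 estimated counts. Rgs14, an R12 protein that also carries Ras-binding domains and a GoLoco motif holding inactive G alpha i, stood at 127 and 108 TPM (chromosome 13, 55369732 to 55384687, plus strand). Its mean was 118 ± 13.6 TPM. Rgs19 was above Rgs14 in each library, by 1.45-fold and 1.74-fold, and their ranges did not overlap.

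The R4 genes other than Rgs1 were lower. Rgs3, which acts on G alpha i and G alpha q and has long and short protein forms, stood at 82.9 and 78.9 TPM (chromosome 4, 62559847 to 62704001, plus strand). Rgs2, which prefers G alpha q, stood at 49.8 and 44.1 TPM (chromosome 1, 143999338 to 144004161, minus strand). Rgs16, an R4 gene known to be induced in activated lymphocytes, stood at 23.8 and 19.9 TPM (chromosome 1, 153740349 to 153745468, plus strand). Their means were 80.9 ± 2.86, 46.9 ± 4.07 and 21.9 ± 2.80 TPM, at percentiles 77.6, 63.2 and 40.2 of detected protein-coding genes. On the deposited TPM, Rgs16 was thus the single gene of the set below the median detected gene. From Rgs10 downwards the ranges of neighbours in the order did not overlap, and the ratio of neighbours ran from 1.46 ± 0.117 for Rgs14 over Rgs3 to 2.15 ± 0.0899 for Rgs2 over Rgs16.

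**Figure D1:**
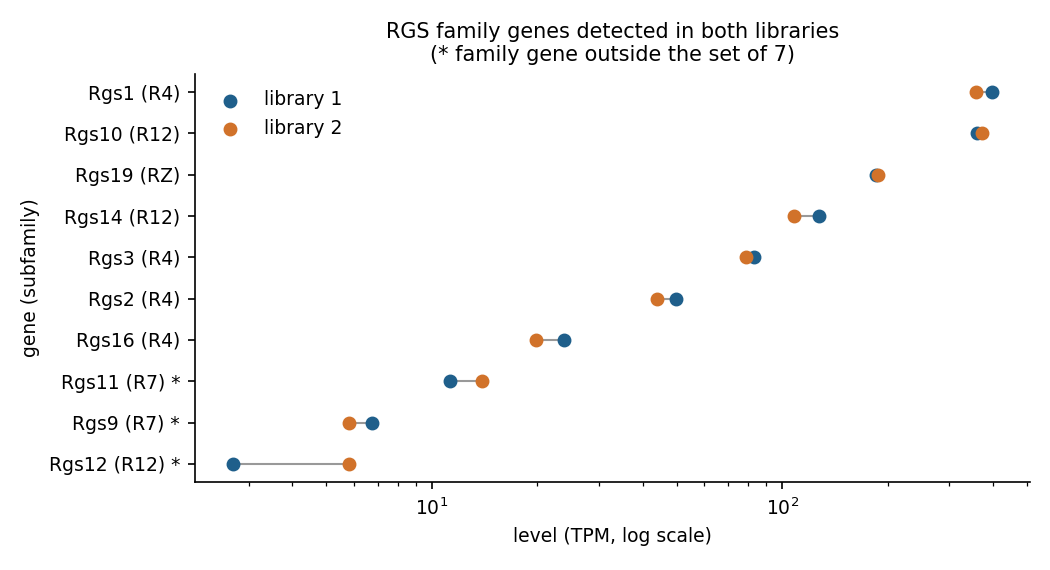
Level in TPM on a log axis for the 10 RGS family genes detected in both libraries, 1 point per library joined by a line, with the subfamily in brackets and an asterisk for family genes outside the set of 7. Rgs1 and Rgs10 overlap between 357 and 397 TPM, the other members step down without overlap to Rgs16 at 23.8 and 19.9 TPM, and Rgs12 has the widest gap in proportion to its level.

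The levels of Rgs1 and Rgs2 depend on which transcripts the reads are credited to. TPM divides counts by length, and the deposited gene lengths were averages over the estimated transcript mix. For Rgs1 that length was 1516 bases in library 1, against 3841 bases for its principal coding transcript Rgs1-208. When the same counts were divided by the length of each gene's principal coding transcript, an alternative chosen after seeing the data, Rgs1 came to 153 and 134 TPM and Rgs2 to 17.6 and 15.5 TPM. The deposited means were 2.62-fold and 2.84-fold of those values. Rgs3 came to 57.5 ± 2.69 TPM, Rgs19 to 158 ± 1.59 TPM, and Rgs10, Rgs14 and Rgs16 stayed within 1.05-fold of the deposited level. On that scale Rgs10 led, followed by Rgs19, Rgs1, Rgs14, Rgs3, Rgs16 and Rgs2. Rgs19 then stood above Rgs1, and Rgs16 above Rgs2, in both libraries. Rgs2 was then also below the deposited median of 31.1 TPM for detected protein-coding genes.

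Of the 22 annotated RGS family genes 10 were detected, the 7 members and 3 others. The members took 98.3% and 97.8% of the family's TPM. R4 genes took 43.1 ± 1.74%, R12 genes 40.0 ± 0.968%, the RZ subfamily 15.3 ± 0.628% through Rgs19, and R7 genes 1.55 ± 0.143%. The order of the first pair depends on the length used for Rgs1: at the principal coding lengths R4 genes took 26.8 ± 1.58% and R12 genes 53.4 ± 1.09%. The other detected genes were Rgs11 at 11.3 and 13.9 TPM, Rgs9 at 6.74 and 5.81 TPM and Rgs12 at 2.70 and 5.80 TPM. Rgs9 and Rgs11 are R7 proteins, which pair with the atypical beta subunit G beta 5.

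A further 10 family genes had reads but stayed below the minimum, at no more than 12 counts and 0.30 TPM in either library. That maximum belonged to Rgs18, a gene of platelets and megakaryocytes, with 3 and 12 counts. Rgs13, known from germinal centre B cells and mast cells, had 3 and 1 counts, and Rgs5, a marker of pericytes, had 6 and 0. Rgsl1 had 6 and 11 counts, Rgs22 had 5 and 1, Rgs17 had 3 and 3 and Rgs20 had 2 and 2. Rgs4, Rgs6 and Rgs8 had 2, 1 and 1 counts in library 1 and 0 in library 2. Rgs7 and Rgs21 had 0 counts in both, and a count of 0 allows up to 3 reads per library.

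The family is unevenly placed in the genome. On chromosome 1 lie 12 family genes, of which Rgs1, Rgs2 and Rgs16 are members. Rgs2, Rgs13, Rgs1, Rgs21 and Rgs18 follow each other within 776.1 kb. In that stretch Rgs2 and Rgs1 were detected, while Rgs13 between them and Rgs21 and Rgs18 beyond them were not. The nearest family genes on the sides of Rgs16 are Rgs8 and Rgsl1, both below the minimum.

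By TPM, transcript estimates separated the set into genes credited mostly to coding transcripts and genes that were not. Protein-coding transcripts took 98.6% of the TPM of Rgs10, 93.1 ± 1.10% of Rgs19, 76.2 ± 2.18% of Rgs14 and, with a single annotated transcript, all of Rgs16. They took 47.1 ± 1.03% of Rgs2, 8.86 ± 0.556% of Rgs3 and 0.0239 ± 0.00177% of Rgs1. The rest was credited to transcripts annotated as retaining an intron, as targets of nonsense-mediated decay (NMD, the pathway that degrades RNA with an early stop codon) or as processed transcripts. Of the 6 members with 2 or more transcripts 3 were under 50%, and 16.4% of 9743 detected protein-coding genes with 2 or more transcripts were. Such shares rest on how the authors' quantification split reads that overlapping transcripts have in common, an error that the SD does not contain.

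**Figure D2:**
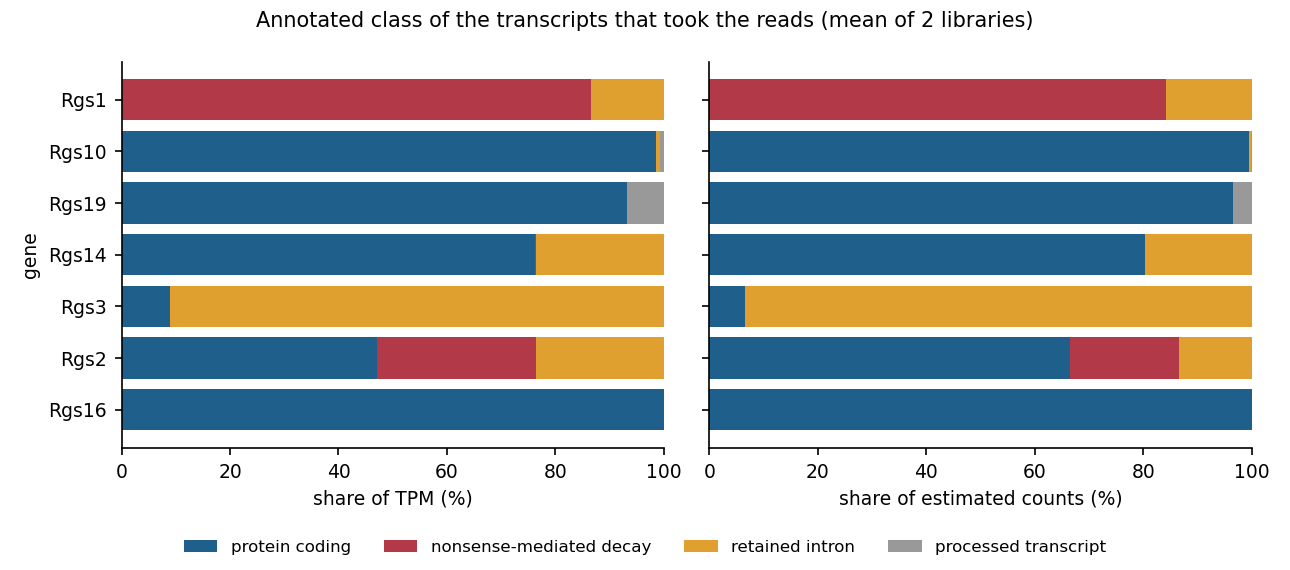
Share of each gene's TPM (left, in %) and of its estimated counts (right, in %) by the annotated class of the transcript, as means of the 2 libraries. Rgs10, Rgs19, Rgs14 and Rgs16 are mostly protein coding on both scales, Rgs1 is divided between NMD and retained intron classes, Rgs3 is mostly retained intron, and Rgs2 passes from 47.1% to 66.5% protein coding between the scales.

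In Rgs1 the leading transcript was Rgs1-204, annotated as an NMD target, at 283 and 261 TPM, or 71.5% and 73.1% of the gene. It also led by estimated counts, with 62.3% and 65.7%. Rgs1-206, likewise an NMD target, took 11.4% and 9.78% of TPM, and the retained-intron Rgs1-203 took 9.63% and 10.7%. The unspliced single-exon Rgs1-205 took 13.6% and 12.8% of counts but 3.29 ± 0.208% of TPM, since it is 5843 bases long. Rgs1-202 took 6.64 ± 1.17% of counts. The principal coding transcript Rgs1-208 was given 0.0239% of TPM. The coding share of Rgs1 lay at percentile 0.226 of the 9743 genes, of which 37 (0.380%) were under 1%.

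The sequences at the end of exon 1 show what separates these Rgs1 transcripts. Both lines run 5′ to 3′ on the minus strand of chromosome 1 (GRCm38, GENCODE M21). The last 30 bases of exon 1, chr1:144248901-144248930, are in lower case, and the 31 bases that follow in each transcript are in capitals, chr1:144248529-144248559 in Rgs1-208 and chr1:144248578-144248608 in Rgs1-204.
Rgs1-208: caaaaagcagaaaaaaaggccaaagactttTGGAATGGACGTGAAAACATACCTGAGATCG
Rgs1-204: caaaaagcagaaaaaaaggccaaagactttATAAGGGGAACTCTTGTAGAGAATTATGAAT
Rgs1-204 joins exon 1 to a splice site 49 bases further upstream in the gene (144248560 to 144248608), and the first base of that stretch completes codon 46, after which a TAA stop follows. The annotated coding sequence of Rgs1-208 spans 209 codons. Apart from those 49 bases, Rgs1-204 is contained in Rgs1-208 and holds all 627 of its coding bases. It starts 185 bases later and ends 2377 bases earlier. The transcripts therefore differ in their ends as well as at this junction, and reads in the shared 1279 bases could come from either.

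**Figure D3:**
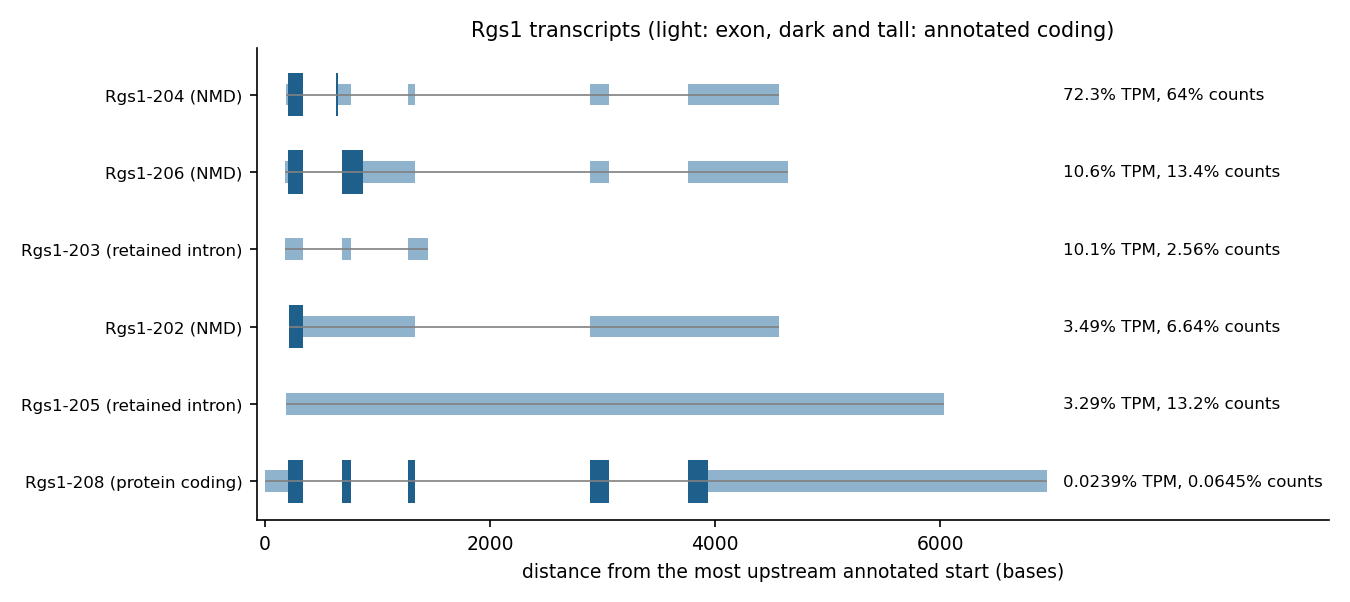
Exons (light) and annotated coding parts (dark, tall) of 6 Rgs1 transcripts by distance in bases from the most upstream annotated start, with each transcript's mean share of TPM and of estimated counts. Rgs1-204 repeats the exons of Rgs1-208 with a longer second exon and shorter ends, and took 72.3% of TPM, whereas Rgs1-208 took 0.0239%.

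Most Rgs3 reads were credited to transcripts whose annotated start lies inside the gene. Rgs3-214, annotated as a retained-intron transcript, took 58.7% and 58.2% of TPM, and Rgs3-212 from the same start took 5.16% and 7.96%. Transcripts starting at 62634378 thus held 65.0 ± 1.59% of TPM and 66.5 ± 1.94% of counts. Rgs3-209, a retained-intron transcript of 2 exons, took 25.9% and 22.3%. The principal coding transcript Rgs3-202 and the most upstream Rgs3-201 were at 0 TPM in both libraries. Among coding transcripts Rgs3-216, which begins near the 3′ end of the gene, took 4.81% and 5.91%.

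The first 98 bases of Rgs3-214, shown because transcripts starting here were credited with most Rgs3 reads, run 5′ to 3′ on the plus strand. Capitals mark the 68 bases absent from Rgs3-202 (chr4:62634378-62634445), and lower case the 30 that follow (chr4:62634446-62634475, GRCm38).
Rgs3-214: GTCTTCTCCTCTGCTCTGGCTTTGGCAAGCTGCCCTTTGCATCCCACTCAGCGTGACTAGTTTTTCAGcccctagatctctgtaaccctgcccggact
Beyond those 68 bases, Rgs3-214 lies wholly in the exons of Rgs3-202 and holds 2067 of its 2898 coding bases (71.3%). Reads in the 2843 bases that the transcripts share could come from either, so use of this start was not measured. Read in the frame of Rgs3-202, no stop codon occurs in the shared part before the stop of Rgs3-202 itself. The first ATG in that frame is codon 399 of Rgs3-202 and opens 568 codons of its 966. The annotation gives Rgs3-214 no coding sequence, and RNA reads do not show whether it is translated. Transcripts that hold the last coding exon of Rgs3-202 (62702060 to 62702242) took 65.2 ± 0.341% of the gene's TPM.

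**Figure D4:**
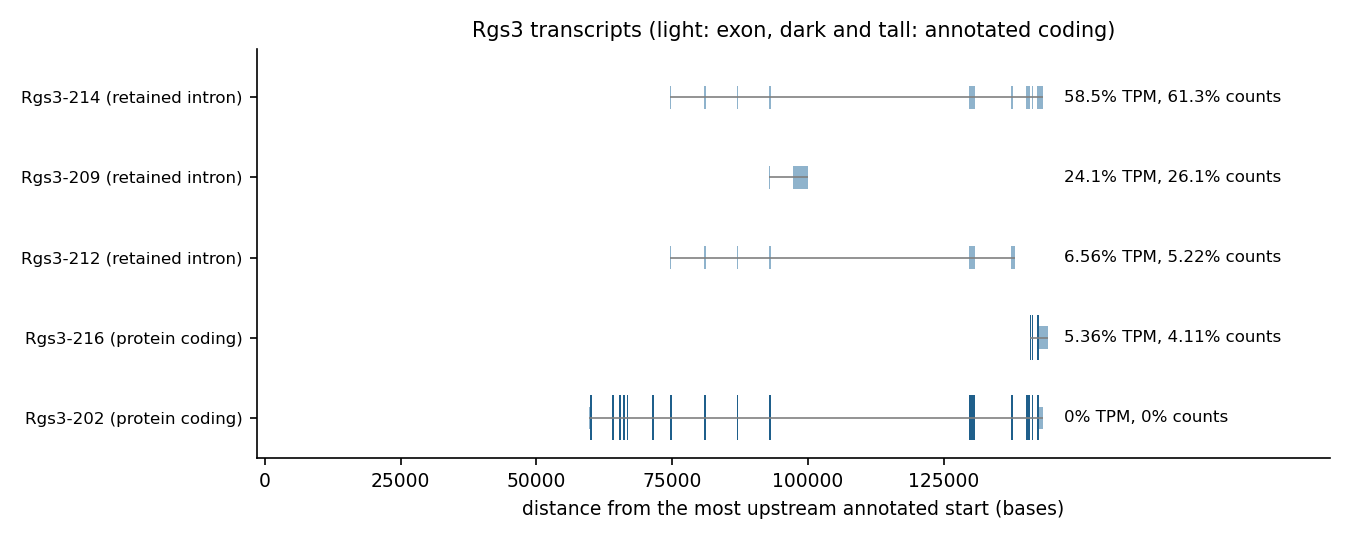
Exons (light) and annotated coding parts (dark, tall) of 5 Rgs3 transcripts by distance in bases from the most upstream annotated start of the gene, with mean shares of TPM and of estimated counts. Rgs3-214 starts within the gene and follows the later exons of Rgs3-202, and took 58.5% of TPM against 0% for Rgs3-202.

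For Rgs2 no transcript led on every scale. By TPM the coding Rgs2-204 took 29.3% and 28.4%, and the NMD-annotated Rgs2-201 took 24.8% and 34.0%, so each led in a single library. The retained-intron Rgs2-203 took 27.4% and 19.7%. The principal coding transcript Rgs2-202, the longest at 3021 bases, took 18.5% and 17.9% of TPM but 52.4% and 50.9% of estimated counts. Rgs2 is the single member of the set whose leading transcript differed between TPM and counts.

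Rgs2-201 and Rgs2-202 part at an intron of 110 bases (144002842 to 144002951) that Rgs2-201 keeps. The lines below, shown because the annotated stop of Rgs2-201 depends on this intron, run 5′ to 3′ on the minus strand of chromosome 1 (GRCm38). The last 30 shared bases, chr1:144002952-144002981, are in lower case and the next 31 in capitals, chr1:144002811-144002841 in Rgs2-202 and chr1:144002921-144002951 in Rgs2-201.
Rgs2-202: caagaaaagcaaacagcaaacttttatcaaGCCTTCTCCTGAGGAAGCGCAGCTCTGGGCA
Rgs2-201: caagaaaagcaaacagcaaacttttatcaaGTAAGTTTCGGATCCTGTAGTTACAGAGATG
In Rgs2-201 the first intron base completes codon 71 and a TAA stop follows, against 211 codons in Rgs2-202. The capitals of Rgs2-201 begin with GT, the usual first bases of an intron.

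Rgs10-201 took 98.3% of Rgs10 TPM in each library. Rgs14-201 took 77.7% and 74.7% of Rgs14, and most of the rest, 22.6 ± 2.36%, went to the retained-intron Rgs14-202. Rgs16-201 is the sole annotated transcript of Rgs16. For these genes the principal coding transcript also led by estimated counts, at 99.4%, 80.3% and 100% on average.

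Rgs19 reads were credited to transcripts with several first exons. The leading Rgs19-201 took 53.6% and 44.7% of TPM, Rgs19-202 took 12.5% and 11.9%, and the short Rgs19-211 took 9.41% and 14.7%. Rgs19-206 and Rgs19-212 have the same exons and were given equal counts, 292 each in library 1 and 490 each in library 2. Transcripts with the most upstream first exon, starting from 181693907 to 181693977, held 68.9% and 57.6% of TPM. Those starting from 181693631 to 181693810 held 10.8% and 9.28%, and those starting at 181691817 held 10.8% and 18.4%. Transcripts with the upstream start were credited with the largest share in both libraries.

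RefSeq lists a start in each of these 3 groups, and the windows around them are shown to set their composition beside these shares. Each line gives 100 bases before the start in lower case and 30 bases from it in capitals, 5′ to 3′ on the minus strand (RefSeq, GRCm38.p6). The windows are chr2:181693948-181694077 for the upstream start, chr2:181693781-181693910 for the middle start and chr2:181691788-181691917 for the downstream start.
Rgs19 upstream: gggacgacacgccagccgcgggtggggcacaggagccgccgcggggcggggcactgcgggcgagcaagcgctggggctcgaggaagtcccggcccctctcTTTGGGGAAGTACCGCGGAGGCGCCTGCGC
Rgs19 middle: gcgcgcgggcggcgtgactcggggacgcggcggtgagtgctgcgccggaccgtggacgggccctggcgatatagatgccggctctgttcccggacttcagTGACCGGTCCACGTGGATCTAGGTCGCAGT
Rgs19 downstream: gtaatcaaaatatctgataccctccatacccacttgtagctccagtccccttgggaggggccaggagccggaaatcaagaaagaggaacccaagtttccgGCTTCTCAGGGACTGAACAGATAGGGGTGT
Over 300 bases, from 250 before to 50 after the start, G and C made up 66.7%, 72.7% and 53.3% of these windows, with 27, 37 and 4 CG dinucleotides. The medians over 32851 RefSeq windows of that length were 52.7% and 7. The motif GGGCGG, searched on both strands, occurred in the upstream and middle windows and not in the downstream one, and 35.7% of all windows hold it. The upstream and middle 300-base windows share chr2:181693928-181694060, so their values are not separate. The only GGGCGG of the upstream window lies in that shared stretch, and the middle window holds another outside it. A match is a description of letters and not of a bound factor.

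In all, 5 of the 7 members had a RefSeq window, 8 windows together, and Rgs1 and Rgs14 were not among them. The windows of Rgs10, Rgs2 and Rgs16 held 76.0%, 70.0% and 66.0% G and C with 34, 33 and 22 CG dinucleotides, and each held GGGCGG. The letters TATAAA, held by 13.6% of all windows, were in both Rgs3 windows and in none of the other 6. CCAAT, held by 37.4%, was in the Rgs2 and Rgs16 windows, while TGACGTCA (1.79%) and TTCNNNGAA (8.30%) were in none of the 8. The Rgs3 windows lie at starts 62559847 and 62619672, and transcripts with those first exons were at 0 TPM. These windows held 49.7% and 58.7% G and C with 4 and 9 CG dinucleotides. GGGCGG was in the window at 62619672 and not in the one at 62559847. The start at 62634378, whose transcripts were credited with most Rgs3 reads, has no RefSeq window in the table used.

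Other annotated genes overlap 3 of the members. Gm15503 lies inside Rgs10 on the same strand, spans 0 exon bases of Rgs10-201 and stood at 6.10 and 7.59 TPM. Gm11209, antisense within Rgs3, spans 197 exon bases of Rgs3-202 and stood at 1.24 and 0.77 TPM. Gm28513, antisense to Rgs16, spans 1835 of the 2339 bases of Rgs16-201 and was given 11.3 and 1.43 counts, against 1154 and 934 for Rgs16. Without a stated strand, reads in the stretches shared with these antisense genes cannot be told apart.

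The nearest neighbours that do not overlap ranged from silent to similar in level. Lman2, 6948 bases from Rgs14, stood at 119 and 109 TPM beside 127 and 108 TPM for Rgs14. Uchl5, 191871 bases from Rgs2 on the opposite strand, stood at 48.2 and 49.2 TPM. Tial1, 21018 bases from Rgs10, stood at 38.4 and 46.0 TPM. Tcea2 ends 347 bases from Rgs19 on the opposite strand and stood at 16.3 and 19.3 TPM. Rbm6-ps2 and Gm7266 on the sides of Rgs1 stood at 0 TPM and at 1.54 and 1.72 TPM. The other nearest neighbours reported, Gm6916, Lkaaear1, Slc34a1, 4933430I17Rik, Gm11210, C230024C17Rik and Rgs13, were under 1 TPM in both libraries.

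The genes with which RGS proteins work were present at levels that set those of the members in scale. Of 16 G alpha genes 9 were detected. Gnai2, which encodes the main G alpha i of lymphocytes, stood at 705 and 667 TPM, Gnas (G alpha s) at 673 TPM in both, Gnai3 at 152 and 133 TPM, Gna13 at 54.2 and 48.8 TPM and Gnaq at 5.60 and 4.82 TPM. Rgs1 reached 54.9 ± 1.91% and Rgs10 53.5 ± 3.29% of the Gnai2 level, Rgs19 27.2 ± 1.34%, and Rgs16 3.18 ± 0.284%. At the principal coding lengths Rgs1 came to 20.9 ± 1.17% of the deposited Gnai2 level and Rgs10 to 52.9 ± 3.24%. The G alpha q gene Gnaq was lower than Rgs2, the member that prefers its product, in each library. Gna11 and Gna15, of the same G alpha class, were higher than Gnaq, at 14.37 and 11.98 TPM and at 15.09 and 13.36 TPM. At the principal coding length Rgs2 came to 17.6 and 15.5 TPM, above each of these genes taken singly. Whether Rgs2 exceeds the class as a whole was not tested.

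Of 17 G beta and gamma genes 9 were detected, led by Gng5 at 385 ± 9.09, Gnb1 at 309 ± 1.86 and Gnb2 at 254 ± 9.25 TPM. Among G protein modulators, receptor kinases and arrestins, 11 of 13 were detected. Of these, the receptor kinases and arrestins act in receptor shut-off. Grk6 stood at 307 and 276 TPM, Gpsm3 at 247 and 252 TPM, Arrb2 at 237 and 258 TPM and Grk2 at 199 and 240 TPM. Of 13 other genes with an RGS homology domain 12 were detected. The highest was Arhgef1, an exchange factor regulated by G alpha 13, at 1638 ± 53.8 TPM, which exceeds the 7 members' sum in both libraries. Grk6 and Grk2 belong to this list too and are next in it.

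Of 35 lymphocyte receptors coupled to G proteins 31 were detected. The lymph node homing receptor Ccr7 stood at 480 and 444 TPM, the egress receptor S1pr1 at 423 and 411 TPM, Gpr83 at 153 and 162 TPM and Cxcr4 at 7.67 and 6.88 TPM. Oprl1 had 11 counts in library 1 and 0 in library 2. Of 17 effectors 9 were detected, led by Prex1 at 108 ± 17.4, Adcy7 at 103 ± 13.5 and Pik3r5 at 57.1 ± 1.03 TPM. In all 78 of 107 pathway genes were detected, with a median of 14.2 TPM over all 107.

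The technical error of these levels was read from the difference between the libraries. An exact two-sided binomial test of each gene's counts, Benjamini-Hochberg adjusted over 18746 genes, called 4 of the 7 members, while 36.5% of all tested genes were called. Among genes with 1000 to 30000 summed counts, the range the members fall in, 47.9% were called, so the members' share lies near that of genes of like depth. Rgs10 was higher in library 2 (log2 ratio of library 2 over library 1 0.12, exact binomial adjusted p = 4.92e-05), as were 17.2% of all tested genes. Higher in library 1, as were 19.2%, were Rgs1 at -0.12 (exact binomial adjusted p = 3.61e-09), Rgs14 at -0.17 (adjusted p = 1.3e-08) and Rgs16 at -0.19 (adjusted p = 0.00998). Rgs19 at 0.05, Rgs2 at -0.11 and Rgs3 at -0.02 did not pass.

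The same 4 members were called with no count filter (20.2% of all tested genes called) and at a summed count of at least 100 (45.1%). These differences are small. The members' median absolute log2 ratio was 0.12 and that of the 8022 genes of like depth was 0.10, and 23.1% of those genes had a larger ratio than any member. With the spread between libraries taken into account by edgeR's exact test with a common dispersion, 0 of 7 members were called and 0 had an unadjusted p under 0.05, while 2.98% of all tested genes were called. That dispersion was estimated from the same libraries, so the absence of calls does not show equal levels. On the M4 counts the binomial test called 0 of 7 members, with 14.4% of tested genes called. Only Rgs14 had an unadjusted p under 0.05 there (exact binomial p = 0.0468), and the log2 ratios of Rgs1, Rgs2 and Rgs3 changed sign, to 0.03, 0.01 and 0.03.

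**Figure D5:**
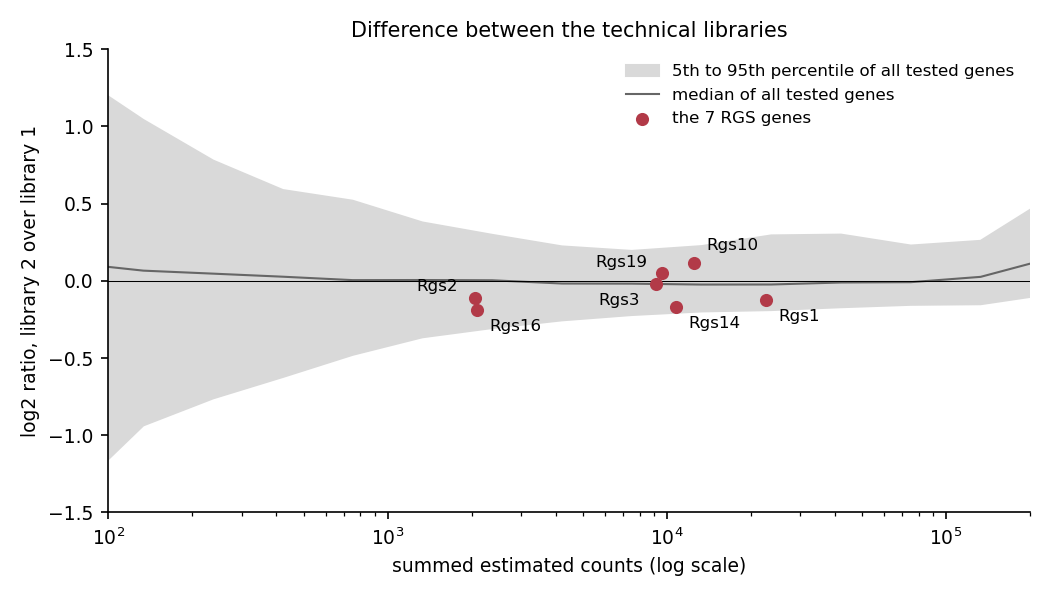
Log2 ratio of library 2 over library 1 against summed estimated counts on a log axis, with the median (line) and the 5th to 95th percentile (grey) of tested genes in bins of summed count and the 7 RGS genes as points. The 7 points lie between -0.19 and 0.12, inside the grey band at their depth.

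The M4 table, whole-number counts per gene from genome alignments on an older annotation, gives a separate view of depth. Rgs14 had 2374 and 2106 M4 counts, the most of the set, followed by Rgs1 with 1417 and 1366, Rgs19 with 1320 and 1299 and Rgs10 with 1030 and 999. Rgs3 had 582 and 559, Rgs2 434 and 412 and Rgs16 235 and 201. M4 counts were 40.1% and 43.5% of the M21 estimated counts for Rgs14 but 11.5% and 13.1% for Rgs1 and 12.1% and 12.8% for Rgs3. For Rgs10 they were 16.4% and 15.9%, and for Rgs16 20.4% and 21.5%. Rgs19 had 26.8% and 27.6%, and Rgs2 39.3% and 43.6%. The median over genes of like M21 depth was 36.3% and 36.1% beside Rgs14, Rgs3, Rgs10 and Rgs19, and 17.2% and 16.4% beside Rgs1. Beside Rgs2 and Rgs16 it was 44.9% in library 1. The spread was wide. In library 1 the 5th to 95th percentile ran from 6.03% to 67.0% beside Rgs14 and Rgs3. Beside Rgs1 it ran from 1.26% to 44.8%. The sources used here do not state the counting rule of the M4 table, and why the shares differ was not tested.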

How the data were processed

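PolyA-selected RNA of Treg cells was sequenced in 2 technical libraries of 1 biosample, which form 1 group. Per the file headers, the authors deposited gene and transcript tables on GENCODE M21 with estimated counts (reads shared between features divided by a model), TPM and FPKM (both scaled for length and depth), posterior mean TPM and isoform percent. Bounds of an interval on TPM, a non-negative signal value, were deposited beside them by the authors with no stated level. The deposited gene tables on GENCODE M4 hold whole-number read counts. The sources used here do not name the aligner, quantifier or counter. Rows naming no gene (0.197% and 0.212% of estimated counts) were left out of totals and tests. M4 totals were 9576557 and 8937887.

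Levels were compared between genes as TPM. Estimated counts were rounded, scaled by TMM (edgeR 4.0.16, R 4.3.3) and compared between libraries by an exact binomial test (minimum summed count 10). The test speaks of these libraries alone and takes in counting error but no PCR duplication. With 1 library per side no residual degrees of freedom remain for edgeR's quasi-likelihood fit. Its exact test with a common dispersion and DESeq2 1.42.0 size factors were alternatives. Log2 ratios used a prior count of 0.5. The binomial test was checked on simulated counts with counting error alone, and edgeR's exact test on counts with a set dispersion. The check of the binomial test does not cover spread beyond counting error. The common dispersion estimated from the libraries was 0.0228. Alternatives also covered detection minimum, estimator, unit, length and counting table.

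Genes named were all members, all other RGS family genes, the 3 highest of each pathway list with 11 fixed pathway genes, nearest and overlapping neighbours (not all are reported here), and transcripts at 5% or more of a member's TPM or leading by counts. Principal coding transcripts, Rgs1-202, Rgs1-205, Rgs3-201, Gna11, Gna14 and Gna15 were added after their values were seen. The principal coding transcript is the APPRIS principal, CCDS-supported one with the longest coding sequence. The members and lists were chosen with earlier results of these data known. Coordinates are 1-based.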

Additional observations from a re-analysis of the deposited data

Results flagged for a closer look

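Rows outside the comparisons, which name transfer RNAs and spike-ins and no annotated gene, held 68585 estimated counts in library 1 and 67965 in library 2, above the 3 reads that a count of 0 allows. No RGS gene is among them.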

How the results depend on the processing

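No paired analysis was possible because the libraries form 1 group, in which replicate numbers pair nothing. Leaving out a library leaves no comparison between libraries, so that test was not repeated. All 7 members were detected under every alternative run for that count. Detection with a single library follows from the rule, which asks for the minimum in both. The number of members keeping their place in the order of levels was 7 by posterior mean TPM, 2 at the length of the principal coding transcript (chosen after seeing the data), 1 by M4 counts per kilobase and 3 by estimated counts with no length correction, and 5 to 7 with 1 library left out. With library 1 left out, Rgs10 and Rgs1 changed places. The M4 counts were divided by the deposited M21 gene length. Their order was Rgs10, Rgs19, Rgs14, Rgs1, Rgs2, Rgs3 and Rgs16, so Rgs1 was not at the top. The shifts at the principal coding length and without length correction follow from the length used, and the cause was not tested for M4. Of the leading transcripts 6 of 7 were the same by estimated counts, Rgs2 being the exception. Members called between libraries were 4, and 0 by edgeR's exact test and 0 on M4 counts, and 4 under the other alternatives. Genes called were 6834, and 558 by edgeR's exact test and 1747 on M4 counts. The family count ranged from 9 at 5 TPM to 11 at 0.1 TPM and the pathway count from 68 to 86. Of 45 alternative values of counts, order and median level 38 stayed within the spread or 1.5-fold. Of 60 for single genes and subfamilies 38 stayed within the spread. Part of this tally was fixed in advance. With 1 library left out, a gene's level always stays within the SD of the libraries, and FPKM rescaled to the same total equals TPM. Those values are therefore no check on the levels. The largest moves among member levels were those of Rgs1 from 377 to 144 TPM and Rgs2 from 46.9 to 16.6 TPM at the principal coding length, while the median of the members went from 118 to 112 TPM. With 1 biosample the data give no biological error for any level.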
